A study of Mus musculus with 10 samples.

Results

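The interferon-inducible GTPases are large proteins that bind and hydrolyse GTP and are made in quantity once a cell has met interferon, above all interferon-gamma from T and NK cells. The guanylate-binding proteins (genes Gbp) and the immunity-related GTPases (genes Irgm1, Irgm2, Igtp, Iigp1 and Tgtp1) gather on the vacuoles in which intracellular bacteria and parasites live and help to break them open. In mouse liver, Kupffer cells, the resident macrophages, endothelial cells and hepatocytes can all make them under interferon, so their RNA is widely used as a reading of interferon tone in the tissue. The set described here has 10 genes chosen by symbol: Gbp2, Gbp2b, Gbp3, Gbp6, Gbp7, Igtp, Iigp1, Irgm1, Irgm2 and Tgtp1. Of these, 9 were found among the 16383 named genes of the array, on 12 of its 23438 probes. Gbp6 was not matched to a probe and was not analysed here.

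Liver RNA of 6 mice heterozygous for a knockout of Tgfbr2 (Tgfbr2+/-), the type II receptor for TGF-beta, was compared with liver RNA of 4 wild-type littermates. All mice ate a chow diet. The titles call the heterozygous mice males and give no sex for the wild-type mice, so sex and genotype cannot be told apart here, and age, strain and the build of the knockout allele are not given in the sources used here. Each library is a ratio, on 2-colour arrays, to a shared pool made from the livers of 6 wild-type mice, and the labels do not say whether these include the 4 measured singly. All values below are log2 ratios to that pool, and differences are Tgfbr2+/- minus wild type. A ratio to a pool gives no absolute level, so the 9 genes cannot be ranked by abundance and the tissue cannot be checked by the presence of its markers.

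The direction of the ratio, liver over pool, is likely from Tgfbr2 itself, and is not settled by the labels. The titles name the pool first and then the liver, and do not say which is divided by which. Tgfbr2 averaged -0.32 ± 0.22 in Tgfbr2+/- (SD, n = 6) and 0.15 ± 0.19 in wild type (SD, n = 4) over its probes, a difference of -0.47 ± 0.12 (SE; exact permutation p = 0.0143, limma adjusted p = 0.516). The library labelled Tgfbr2+/- replicate 4, at 0.05, lay among the wild-type values. Wild-type replicate 1 and Tgfbr2+/- replicate 5 correlated at r = -0.325 over all probes, so the direction of either column is unsettled. Differences of the GTPase genes analysed here are therefore also given with the sign of each column turned. Those of single probes and of single genes outside the set are given as deposited only, and would change with such a turn. As deposited, Tgfbr2 itself stood at 0.23 in wild-type replicate 1 and -0.49 in Tgfbr2+/- replicate 5, each with the sign of its group mean. With all 10 libraries, 0 of 16383 genes passed a limma adjusted p of 0.05, and 908 (5.54%) had an unadjusted p under 0.05.

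Transcription of these genes is known to be driven through 2 kinds of promoter element. The interferon-stimulated response element (ISRE) is bound by interferon regulatory factors, and the gamma-activated sequence (GAS) answers to interferon-gamma. RefSeq promoters (assembly GRCm38.p6) reach from 250 bases before the annotated start to 50 after it, and 8 of the 9 measured genes had one. Both strands were searched for GAAA, any 2 bases and GAAA again as ISRE, and for TTC, any 3 bases and GAA as GAS, which reads the same on both strands. The stretches that hold the matches are printed below, 5′ to 3′ on the strand of the gene, because they are what these genes share in sequence. Capitals mark the matched letters.
Gbp2 (chr3:142620589-142620628, plus strand): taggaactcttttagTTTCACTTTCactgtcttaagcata
Gbp2b (chr3:142594695-142594734, plus strand): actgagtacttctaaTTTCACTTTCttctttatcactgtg
Gbp3 (chr3:142559984-142560029, plus strand): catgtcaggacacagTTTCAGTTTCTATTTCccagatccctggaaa
Gbp7 (chr3:142530215-142530307, plus strand): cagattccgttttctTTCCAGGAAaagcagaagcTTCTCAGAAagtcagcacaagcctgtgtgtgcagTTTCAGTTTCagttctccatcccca
Irgm1 (chr11:48871420-48871465, minus strand): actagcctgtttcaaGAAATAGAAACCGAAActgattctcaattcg
Irgm2 (chr11:58214887-58214937, plus strand): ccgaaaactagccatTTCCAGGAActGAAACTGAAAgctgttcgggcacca
Igtp (chr11:58199496-58199546, plus strand): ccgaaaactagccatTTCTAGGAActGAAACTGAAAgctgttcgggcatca
Tgtp1 (chr11:48992299-48992349, minus strand): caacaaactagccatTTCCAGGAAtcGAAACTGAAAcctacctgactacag

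All 8 genes held the ISRE letters, against 3.44% of 32851 RefSeq promoters of the same length. In the 4 Gbp genes, which lie in 1 cluster on chromosome 3, the match ran on the strand opposite to the gene, where it reads TTTC, any 2 bases and TTTC. In the 4 immunity-related GTPase genes on chromosome 11 it ran with the gene. Gbp3 and Irgm1 each held 2 overlapping matches, and a second annotated promoter of Gbp3 held neither motif. The GAS letters were found in 4 of the 8 genes, Gbp7, Irgm2, Igtp and Tgtp1, against 8.3% of promoters. In Irgm2, Igtp and Tgtp1 a GAS match began exactly 11 bases before an ISRE match on the gene's strand, an arrangement present in 5 of all 32851 promoters. The other 2 were Tgtp2, the near copy of Tgtp1, and Gm12185, both also on chromosome 11. The stretches of Igtp and Irgm2 were identical at 49 of 51 bases, and those of Tgtp1 and Irgm2 at 36 of 51. A match of letters is a description and does not show binding.

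**Figure D1:**
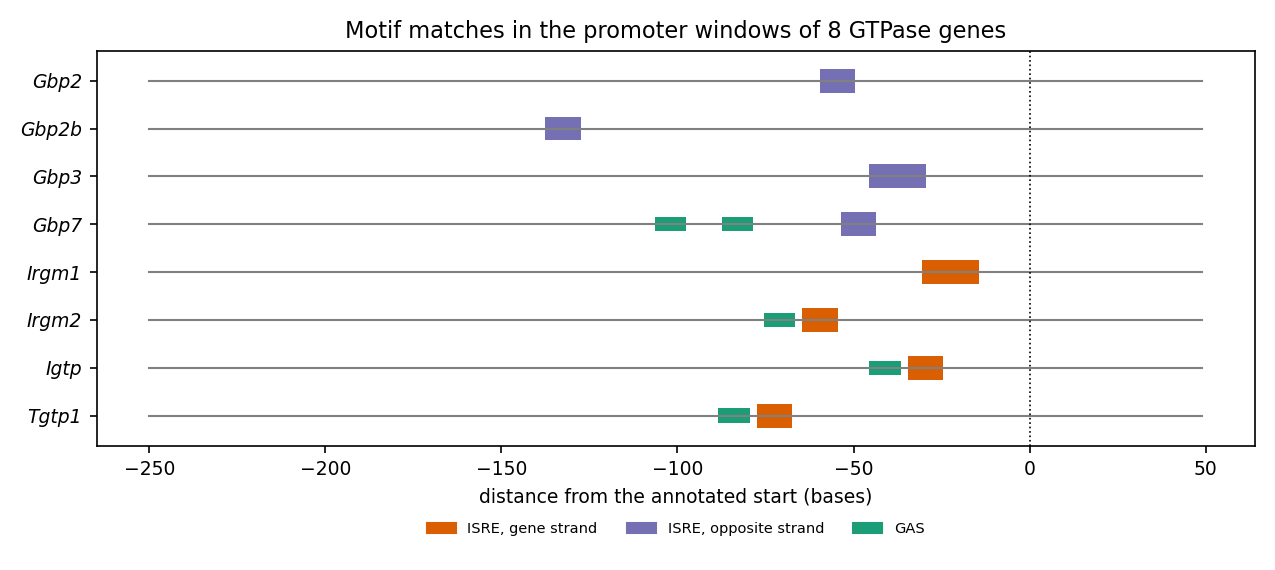
Matches to the ISRE and GAS letters in the promoter windows of 8 GTPase genes, by distance in bases from the annotated start (dotted line at 0); wide bars are ISRE on the gene's strand (orange) or the opposite one (purple), narrow green bars are GAS. All matches lie before the start, and in Irgm2, Igtp and Tgtp1 a GAS match begins 11 bases before the ISRE match.

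As a group the GTPases leaned upward in Tgfbr2+/- liver by a small amount, and no single gene passed the test over all genes. Positive differences were found for 8 of the 9, against 52.6% of all genes, with a median of 0.19 against a median of 0.004 over all genes. Past an unadjusted limma p of 0.05, 3 of the 9 were higher (Gbp3, Gbp2b and Iigp1) and 0 were lower, where 2.97% of all genes were higher and 2.57% lower. The count past the adjusted threshold was 0 of 9, as for 0% of all genes. Turning the sign of wild-type replicate 1 left 1 gene, Iigp1, at an unadjusted p under 0.05, and turning that of Tgfbr2+/- replicate 5 left Gbp3 and Iigp1. The share of all genes higher was then 1.82% and 1.61%. Without Tgfbr2+/- replicate 3 there were 6 (Gbp2b, Gbp3, Iigp1, Irgm1, Irgm2 and Tgtp1). In that fit 10 genes of the array passed the adjusted threshold, none of them among the 9. Without Tgfbr2+/- replicates 4 and 5, a choice made after the data were seen, Gbp3 alone remained. The share of all genes at an unadjusted p under 0.05 is not given here for these fits without libraries.

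Averaged over the 9 genes, the libraries stood at 0.003, 0.08, -0.34, -0.02, 0.20 and 0.32 in Tgfbr2+/- replicates 1 to 6, against -0.10, -0.21, -0.19 and -0.07 in wild-type replicates 1 to 4. Thus 5 of the 6 heterozygous livers exceeded every wild-type liver, and Tgfbr2+/- replicate 3 lay below them all. Turning wild-type replicate 1 left 2 of 6 above, and turning Tgfbr2+/- replicate 5 left 4. The mean was 0.04 ± 0.22 in Tgfbr2+/- (SD, n = 6) and -0.14 ± 0.07 in wild type (SD, n = 4), a difference of 0.18. Turned in sign, wild-type replicate 1 made it 0.14 and Tgfbr2+/- replicate 5 made it 0.12. The difference fell between 0.13 without Tgfbr2+/- replicate 6 and 0.26 without replicate 3, so these 2 livers pull it in opposite directions. Replicate 3 was the lowest heterozygous library for 7 of the 9 genes and replicate 6 the highest for 5.

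**Figure D2:**
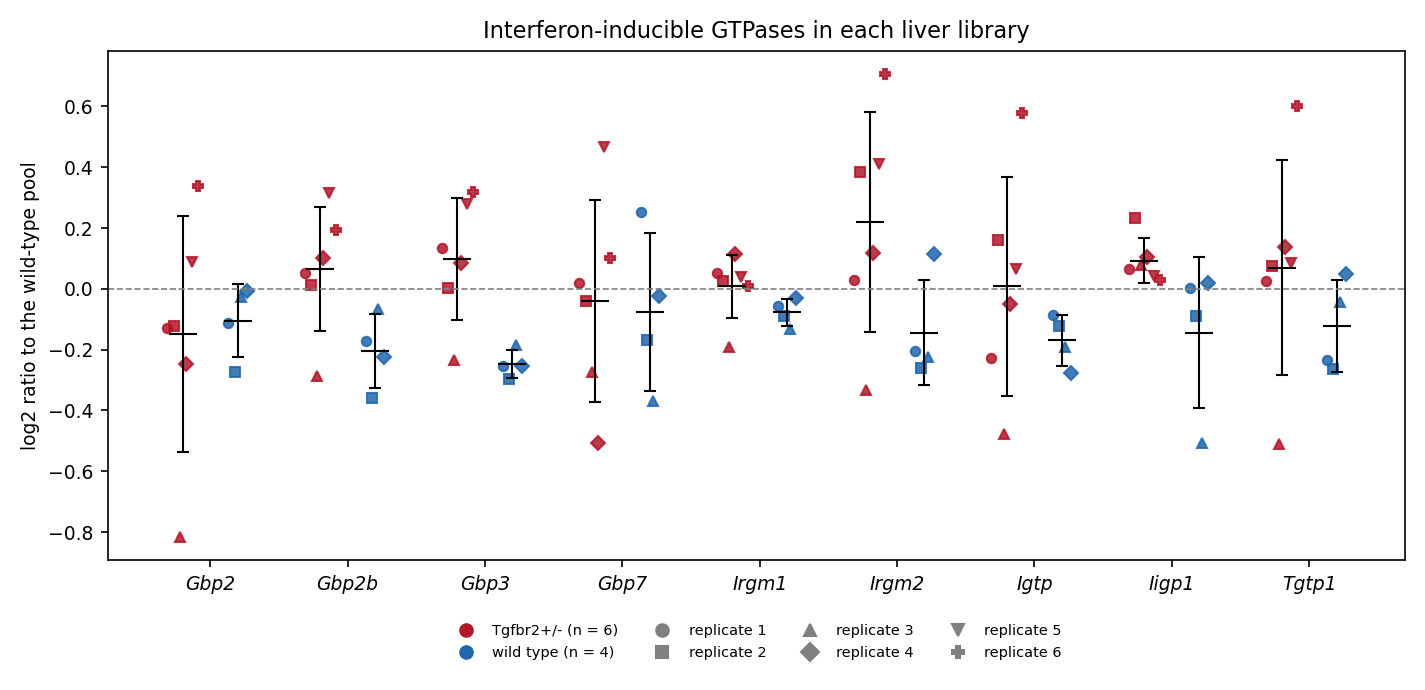
Log2 ratio to the wild-type pool of 9 GTPase genes in 6 Tgfbr2+/- libraries (red) and 4 wild-type libraries (blue), with marker shapes for replicates and bars for the mean ± SD. Heterozygous values spread more widely than wild-type values for most genes, with replicate 3 low and replicate 6 high, and Iigp1 shows the opposite.

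The Gbp genes encode dynamin-like GTPases that assemble into coats on pathogen vacuoles and on bacteria. Among them Gbp3 had the smallest limma p of the set with the columns as deposited. Its values ran from -0.23 through a median of 0.11 to 0.32 in Tgfbr2+/-, against -0.25, -0.30, -0.18 and -0.25 in wild type. Every heterozygous library except replicate 3 was above all wild-type libraries, which lay within a narrow band. Turned in sign, wild-type replicate 1 stood at 0.25, with 2 heterozygous libraries above it, and a turn of Tgfbr2+/- replicate 5 left 4 above. Gbp3 averaged 0.10 ± 0.20 in Tgfbr2+/- (SD, n = 6) and -0.25 ± 0.05 in wild type (SD, n = 4), a difference of 0.35 ± 0.09 (SE), or 1.27-fold (exact permutation p = 0.0238, limma unadjusted p = 0.00391, adjusted p = 0.616). It was 0.22 with wild-type replicate 1 turned (limma unadjusted p = 0.112) and 0.25 with Tgfbr2+/- replicate 5 turned (limma unadjusted p = 0.0373).

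Gbp2b, known in older literature as Gbp1, varied closely with Gbp3, with r = 0.945 between the 2 genes over the 10 libraries. Its values ran from -0.29 through a median of 0.08 to 0.31 in Tgfbr2+/-, against -0.17, -0.36, -0.07 and -0.23 in wild type. The groups overlapped only through Tgfbr2+/- replicate 3, but a turn of wild-type replicate 1 (to 0.17) left 2 of 6 heterozygous libraries above all wild-type libraries, and one of Tgfbr2+/- replicate 5 left 4. Gbp2b averaged 0.06 ± 0.20 in Tgfbr2+/- (SD, n = 6) and -0.20 ± 0.12 in wild type (SD, n = 4), a difference of 0.27 ± 0.10 (SE; exact permutation p = 0.0524, limma unadjusted p = 0.0242, adjusted p = 0.804). The difference was 0.18 with wild-type replicate 1 turned and 0.16 with Tgfbr2+/- replicate 5 turned (limma unadjusted p = 0.159 and 0.150).

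Gbp2, one of the interferon-gamma-induced coat proteins, had no such difference, although it varied with Gbp3 within the groups (r = 0.943 with group means removed). Its values ran from -0.82 through a median of -0.13 to 0.34 in Tgfbr2+/-, against -0.11, -0.27, -0.03 and -0.01 in wild type. The wild-type libraries lay inside the heterozygous range. The difference was -0.04 ± 0.18 (SE; exact permutation p = 0.852, limma adjusted p = 0.989), and it turned to 0.09 without Tgfbr2+/- replicate 3. Gbp7, which has been tied to the host's assault on pathogen vacuoles, was scattered in both groups. It ran from -0.51 through -0.01 to 0.47 in Tgfbr2+/-, against 0.25, -0.17, -0.37 and -0.02 in wild type. Its difference of 0.04 ± 0.17 (SE; exact permutation p = 0.862, limma adjusted p = 0.989) was 0.16 with wild-type replicate 1 turned and -0.12 with Tgfbr2+/- replicate 5 turned. For Gbp2 the values so turned were -0.10 and -0.07.

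The immunity-related GTPases fall into regulators and effectors. Irgm1, Irgm2 and Igtp (also called Irgm3) sit on the cell's own membranes, where they keep the effector GTPases inactive. Irgm2 had a difference close to that of Gbp3, on libraries that spread widely. Its values ran from -0.33 through a median of 0.25 to 0.71 in Tgfbr2+/-, against -0.20, -0.26, -0.23 and 0.11 in wild type. Of the heterozygous libraries 4 were above all wild-type libraries, replicate 1 lay between wild-type values at 0.03, and replicate 3 was the lowest of all. Irgm2 averaged 0.22 ± 0.36 in Tgfbr2+/- (SD, n = 6) and -0.14 ± 0.17 in wild type (SD, n = 4), a difference of 0.36 ± 0.17 (SE; exact permutation p = 0.119, limma unadjusted p = 0.0576, adjusted p = 0.917). It was 0.26 with wild-type replicate 1 turned and 0.23 with Tgfbr2+/- replicate 5 turned.

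Igtp ran from -0.48 through a median of 0.01 to 0.58 in Tgfbr2+/-, against -0.09, -0.12, -0.19 and -0.28 in wild type. Its difference of 0.18 ± 0.16 (SE; exact permutation p = 0.400, limma adjusted p = 0.934) was 0.06 without Tgfbr2+/- replicate 6 and 0.28 without replicate 3, so it depends on which of these livers is kept. Irgm1 had the smallest difference of these regulators. Its values ran from -0.19 through 0.03 to 0.12 in Tgfbr2+/-, against -0.06, -0.09, -0.13 and -0.03 in wild type. All heterozygous libraries but replicate 3 were above all wild-type libraries, yet by small margins (1 of 6 with wild-type replicate 1 turned, 4 with Tgfbr2+/- replicate 5 turned), and the difference was 0.09 ± 0.06 (SE; exact permutation p = 0.167, limma unadjusted p = 0.164, adjusted p = 0.919). A turned sign of wild-type replicate 1 gave 0.13 for Igtp and 0.06 for Irgm1, and one of Tgfbr2+/- replicate 5 gave 0.16 and 0.07.

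Iigp1 (Irga6) and Tgtp1 (Irgb6) are effectors that load onto the vacuole membrane. As deposited, Iigp1 was the single gene of the 9 whose groups did not overlap, where 0.726% of all genes had non-overlapping groups with Tgfbr2+/- higher. In Tgfbr2+/- it ran from 0.03 through a median of 0.07 to 0.23, against 0.004, -0.09, -0.51 and 0.02 in wild type. The gap was narrow, with the lowest heterozygous value at 0.03 and the highest wild-type value at 0.02, and wild-type replicate 3 stood far below the rest. Iigp1 averaged 0.09 ± 0.07 in Tgfbr2+/- (SD, n = 6) and -0.14 ± 0.25 in wild type (SD, n = 4), a difference of 0.24 ± 0.10 (SE; exact permutation p = 0.0048, the smallest that 210 splits allow, limma unadjusted p = 0.0309, adjusted p = 0.856). Without wild-type replicate 3 the difference was 0.11 (limma unadjusted p = 0.0720). It was 0.24 with wild-type replicate 1 turned, where the groups still did not overlap. It was 0.22 with Tgfbr2+/- replicate 5 turned (to -0.04), where they overlapped (exact permutation p = 0.0238).

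Tgtp1 ran from -0.51 through a median of 0.08 to 0.60 in Tgfbr2+/-, against -0.23, -0.26, -0.04 and 0.05 in wild type. Both extremes were heterozygous, and the difference was 0.19 ± 0.17 (SE; exact permutation p = 0.376, limma adjusted p = 0.928). It was 0.09 without Tgfbr2+/- replicate 6, 0.31 without replicate 3, 0.08 with wild-type replicate 1 turned and 0.16 with Tgfbr2+/- replicate 5 turned. Tgtp2 is a near-identical copy, and the labels do not say whether the probes tell the 2 apart.

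**Figure D3:**
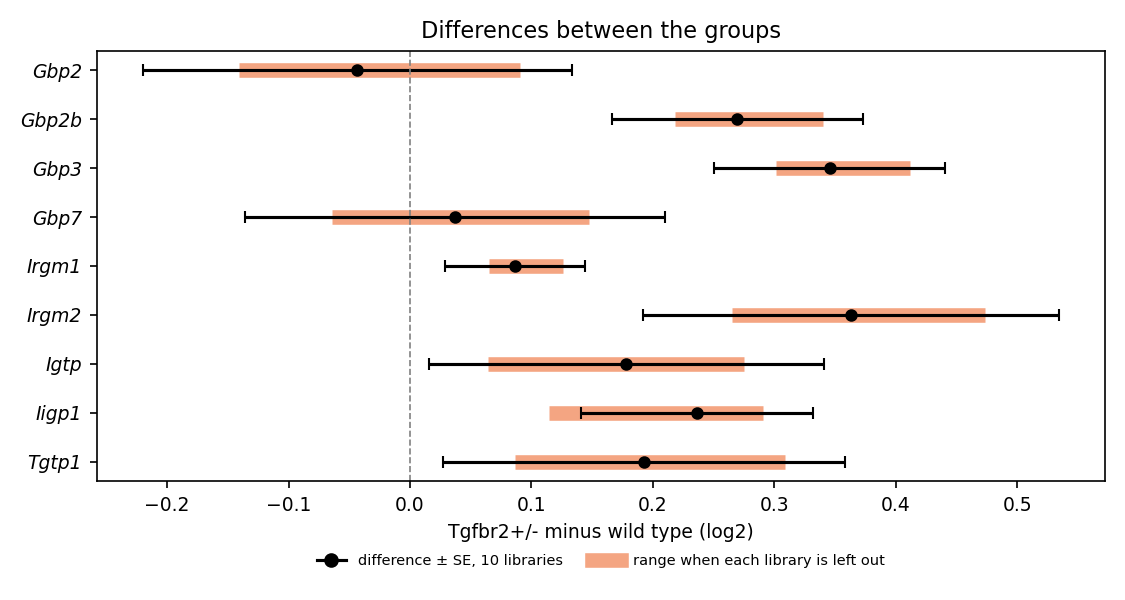
Difference Tgfbr2+/- minus wild type on the log2 scale for 9 GTPase genes (points, bars ± SE, n = 6 and 4) with the range when each library is left out in turn (orange). Gbp2b, Gbp3, Irgm1, Irgm2, Igtp, Iigp1 and Tgtp1 stay above 0 throughout, while Gbp2 and Gbp7 cross it.

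For 3 genes the value above is the mean of 2 probes, and these did not behave alike. Gbp2b probe 10024399354 stayed between -0.05 and 0.10 in all libraries, with a difference of 0.02 ± 0.05 (SE; exact permutation p = 0.691). Probe 10024404217 of the same gene ranged from -0.81 to 0.53 and averaged 0.09 ± 0.38 in Tgfbr2+/- (SD, n = 6) and -0.43 ± 0.27 in wild type (SD, n = 4). It differed by 0.52 ± 0.19 (SE; exact permutation p = 0.0524; limma adjusted p = 0.907 in a fit of single probes, where 2.39% of probes were higher at an unadjusted p under 0.05). Tgtp1 showed the same split. Its probe 10024401719 stayed between -0.03 and 0.10, while probe 10024406328 ranged from -1.04 in Tgfbr2+/- replicate 3 to 1.10 in Tgfbr2+/- replicate 6 and differed by 0.37 ± 0.32 (SE; exact permutation p = 0.367). The 2 probes of Gbp2 differed in sign, at 0.10 ± 0.18 and -0.19 ± 0.21 (SE). On the second of them Tgfbr2+/- replicate 3 was at -1.10 and the wild-type libraries were between -0.07 and 0.06. The averages of Gbp2b and Tgtp1 thus hold a probe whose ratios stayed near 0, and the part of the transcript that each probe reads is not stated in the labels or tables.

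**Figure D4:**
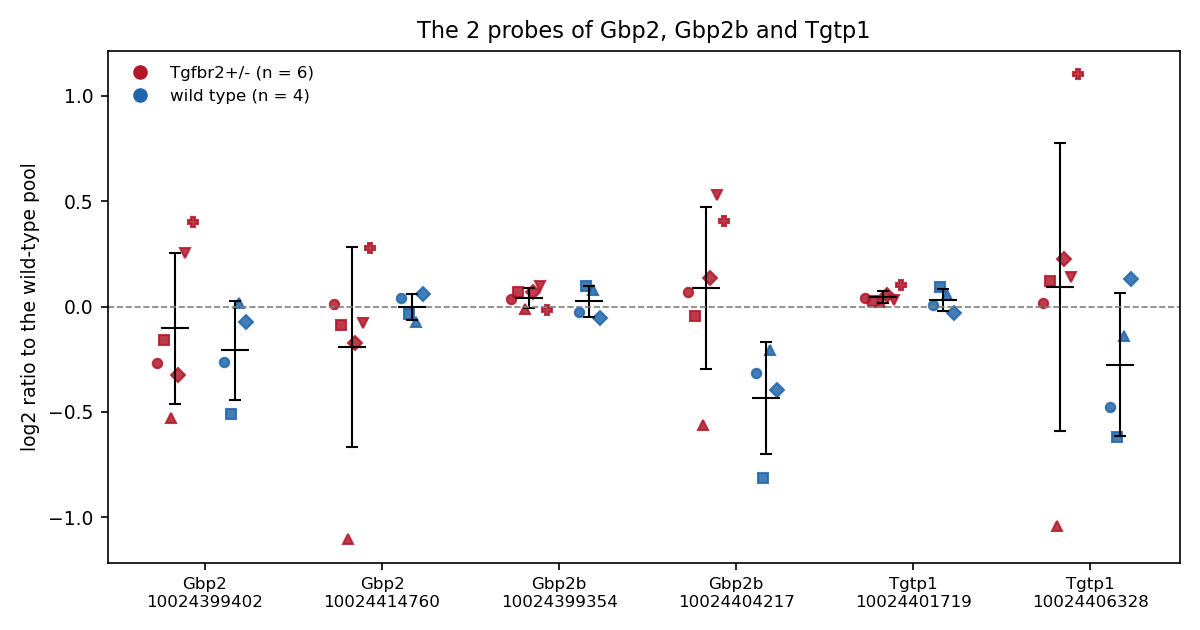
Log2 ratio to the wild-type pool on each of the 2 probes of Gbp2, Gbp2b and Tgtp1, in 6 Tgfbr2+/- libraries (red) and 4 wild-type libraries (blue), bars showing mean ± SD and marker shapes the replicates as in the plot of all 9 genes. Probes 10024399354 and 10024401719 stay within -0.05 to 0.10, and the second probe of the same genes spreads over more than 1 log2 unit.

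Relative to the pool, the wild-type libraries were the ones that stood off. All 9 genes had a wild-type mean below 0, as had 45.5% of all genes, and 7 had a heterozygous mean above 0, as had 54.7% of all genes. With Tgfbr2+/- replicate 5 turned 4 of the 9 heterozygous means were above 0, and with wild-type replicate 1 turned all 9 wild-type means stayed below it. In wild type Gbp3 (limma unadjusted p = 0.00643) and Gbp2b (limma unadjusted p = 0.0264) were below the pool at an unadjusted p under 0.05, as were 2.01% of all genes (4.14% in either direction), and 0 of the 9 passed after adjustment. In Tgfbr2+/- 0 of the 9 had an unadjusted limma p under 0.05 against the pool, where 18.3% of all genes had, and 0 of the 9 passed after adjustment, where 0.0122% had. The pool is a single sample, so its spread, and any bias between dyes, is outside this test.

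The GTPases varied together from liver to liver. Of the 36 pairs of genes 35 correlated positively over the 10 libraries, with a median r of 0.583 and a median of 0.595 once each group's mean was removed, so the shared variation was present within groups. These libraries share the pool and the array processing. Irgm2 tracked the mean of the other genes closely (r = 0.939, and 0.925 with group means removed), as did Gbp2 within the groups (0.738, and 0.954 with group means removed), and Iigp1 least (0.256 and -0.017). As deposited, the heterozygous livers varied more than the wild-type livers. The SD of the mean of the 9 genes was 0.22 in Tgfbr2+/- and 0.07 in wild type, and the median ratio of the 2 SDs per gene was 2.34, against 1.23 over all genes. The SD in wild type was 0.14 with wild-type replicate 1 turned (median ratio 1.53), and that in Tgfbr2+/- was 0.14 without replicate 3 (median ratio 1.55).

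Outside the set, 7 of 27 listed symbols of interferon GTPases were matched to the array, and 0 of these genes had an unadjusted p under 0.05. Positive differences were found for 5 of the 7, with a median of 0.07. Ifi47 (Irgd), an immunity-related GTPase next to the Tgtp genes, was the most like the set. It ran from -0.56 through 0.16 to 0.56 in Tgfbr2+/-, against -0.24, -0.23, -0.49 and -0.02 in wild type, again with heterozygous replicate 3 lowest and replicate 6 highest, and differed by 0.33 ± 0.19 (SE; exact permutation p = 0.181, limma adjusted p = 0.917). Gm12250 (Irgb10) differed by 0.20 ± 0.19 and F830016B08Rik by 0.07 ± 0.06. Gbp4 differed by -0.09 ± 0.06 and Gbp8 by 0.09 ± 0.09, where Gbp8 is the mean of 2 probes at -0.14 ± 0.08 and 0.31 ± 0.16. The antiviral Mx proteins, dynamin-like GTPases induced by type I interferon, differed by -0.02 ± 0.28 for Mx1 and 0.05 ± 0.05 for Mx2 (SE throughout). Mx1 spread from -0.82 to 0.63 among heterozygous livers and from -0.51 to 0.15 among wild-type livers, and its order of libraries was not that of the Gbp genes.

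The pathway upstream of the GTPases leaned the same way by less. Of 17 measured genes of interferon-gamma signalling 16 had positive differences, with a median of 0.07, and 0 had an unadjusted p under 0.05. The feedback inhibitor Socs1 differed by 0.25 ± 0.12 (SE), the receptor chain Ifngr1 by 0.14 ± 0.07 and the transcription factor Batf2 by 0.09 ± 0.04 (limma adjusted p = 0.917 for each). With Tgfbr2+/- replicate 5 turned 11 of the 17 were positive, and with wild-type replicate 1 turned 15. Irf1, chosen after its values were seen, is the factor that drives many GTPase promoters. It ran from -0.27 through a median of 0.03 to 0.53 in Tgfbr2+/-, against -0.41, -0.40, -0.38 and 0.28 in wild type (difference 0.34 ± 0.19, SE; exact permutation p = 0.157, limma adjusted p = 0.917). Ifng, picked in the same way, differed by 0.14 ± 0.12 (SE; exact permutation p = 0.357). Cytokines that call forth interferon and their receptors had 6 positive differences of 16 and a median of -0.02, with Il18r1 at -0.17 ± 0.08, Tnf at 0.11 ± 0.06 and Il12rb1 at -0.22 ± 0.15.

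Other interferon targets were also higher on balance. Of 28 interferon-gamma targets that are not GTPases 26 had positive differences (median 0.11) and 7 were higher at an unadjusted p under 0.05, against the 2.97% of all genes. The members of smallest p were the lysosomal protease Ctss (0.58 ± 0.09) and the Fc receptors Fcgr1 (0.54 ± 0.10) and Fcgr4 (0.32 ± 0.09), with limma adjusted p of 0.115, 0.223 and 0.621. These 3 are also strongly made by macrophages. Of 31 type I interferon targets that are not GTPases 29 had positive differences (median 0.17) and 11 were higher at an unadjusted p under 0.05. Ifi27l2a, a small mitochondrial protein gene, differed by 0.83 ± 0.17, the transcription factor Irf7 by 0.53 ± 0.11 and the RNA-binding Ifit2 by 0.48 ± 0.11 (limma adjusted p = 0.270, 0.280 and 0.437). The lowest Ifi27l2a value of all libraries, -0.91, was that of wild-type replicate 1, whose direction is unsettled. After turning wild-type replicate 1 in sign the counts at an unadjusted p under 0.05 were 4 for interferon-gamma targets and 3 for type I targets, and with Tgfbr2+/- replicate 5 turned they were 3 and 7, where 1.82% and 1.61% of all genes were higher. The mean of the interferon-gamma targets followed that of the GTPases over the 10 libraries (r = 0.861, 0.817 with group means removed, and 0.747 without Tgfbr2+/- replicates 3 and 6, the 2 libraries farthest from the median). For type I targets r was 0.747, 0.725 and 0.854. Turning either column left these 2 correlations between 0.704 and 0.907.

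Genes of the ubiquitin-like conjugation system of autophagy, which directs the GTPases to their vacuole, showed no lean. Of 14 measured 6 had positive differences, the median was -0.01, and 0 had an unadjusted p under 0.05. Map1lc3b differed by -0.14 ± 0.08, Gabarap by 0.08 ± 0.05 and Atg4b by 0.12 ± 0.09 (SE). Their mean did not track that of the GTPases (r = -0.021).

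Markers of the cells that make or answer interferon were set beside the GTPases. In bulk liver a larger number of cells of a type and more RNA per cell cannot be told apart. Of 17 Kupffer cell and macrophage markers 15 had positive differences (median 0.35) and 13 were higher at an unadjusted p under 0.05 (2.97% of all genes), led by Cd5l (0.67 ± 0.10), Vsig4 (0.48 ± 0.08) and Folr2 (0.61 ± 0.10, SE), of which none passed the adjusted threshold (limma adjusted p = 0.115, 0.120 and 0.120). The mean of these markers ran from -0.001 to 0.25 in Tgfbr2+/- and from -0.22 to -0.11 in wild type. The groups thus did not overlap as deposited. For the means of type I targets and neutrophil markers they did not overlap either, but by a very small margin. The lowest heterozygous and highest wild-type means were -0.0605 and -0.0607 for type I targets, and 0.055 and 0.054 for neutrophil markers. With wild-type replicate 1 turned 4 of 6 heterozygous livers exceeded all wild-type livers in the macrophage markers, and with Tgfbr2+/- replicate 5 turned 5 did; for type I targets these counts were 1 and 5, and for neutrophil markers 2 and 5. The mean of the macrophage markers was lowest among heterozygous livers in replicate 3 and highest in replicate 6, as for the GTPases, and correlated with their mean at r = 0.701 (0.731 with group means removed, 0.770 without replicates 3 and 6). After a turn of wild-type replicate 1, and of Tgfbr2+/- replicate 5, 9 and 12 markers had an unadjusted p under 0.05, against 1.82% and 1.61% of all genes higher. The part of macrophage content in the GTPase values was not tested.

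T and NK cell markers, from the main sources of interferon-gamma, stood nearly level. Of 17 measured 10 had positive differences, with a median of 0.02 and 0 at an unadjusted p under 0.05, and the genes of smallest p were Klrk1 (0.09 ± 0.05), Cd3e (0.12 ± 0.06) and Cd4 (-0.12 ± 0.07, SE). Their mean ran from -0.03 to 0.10 in Tgfbr2+/- and from -0.03 to 0.07 in wild type. The mean of all genes, which ran only from -0.003 to 0.005, correlated with that of the GTPases at 0.453, and at -0.123 without Tgfbr2+/- replicates 3 and 6. Over single genes of the array the median r was 0.020. The correlation of the T and NK cell markers was 0.502, and -0.042 without Tgfbr2+/- replicates 3 and 6, on which it therefore rests. Neutrophil markers had 7 positive differences of 8 (median 0.05), with S100a9 at 0.79 ± 0.18, S100a8 at 0.33 ± 0.10 and Cxcr2 at 0.12 ± 0.07. Sinusoidal endothelial markers had 7 of 13 (median 0.01), with Clec4g at 0.27 ± 0.08, Fcgr2b at 0.36 ± 0.11 and Stab2 at -0.08 ± 0.04. B and plasma cell markers had 5 of 7 (median 0.08), with Jchain at 0.28 ± 0.18, Cd79b at 0.13 ± 0.09 and Pax5 at 0.08 ± 0.07. Stellate cell markers had 5 of 9 (median 0.02), with Ecm1 at -0.12 ± 0.06, Lrat at 0.15 ± 0.08 and Rgs5 at 0.09 ± 0.06. Hepatocyte markers had 5 of 10 (median -0.01), with G6pc at -0.43 ± 0.24, Ass1 at -0.19 ± 0.12 and Apoa1 at -0.14 ± 0.10 (SE throughout, 0 past the adjusted threshold). At an unadjusted limma p under 0.05, 2 neutrophil and 2 sinusoidal endothelial markers were higher as deposited, where 2.97% of all genes were. Among B and plasma cell, stellate and hepatocyte markers 0 were. Turning wild-type replicate 1 left 1 neutrophil and 1 endothelial marker (1.82% of all genes), and turning Tgfbr2+/- replicate 5 left 0 and 2 (1.61%).

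**Figure D5:**
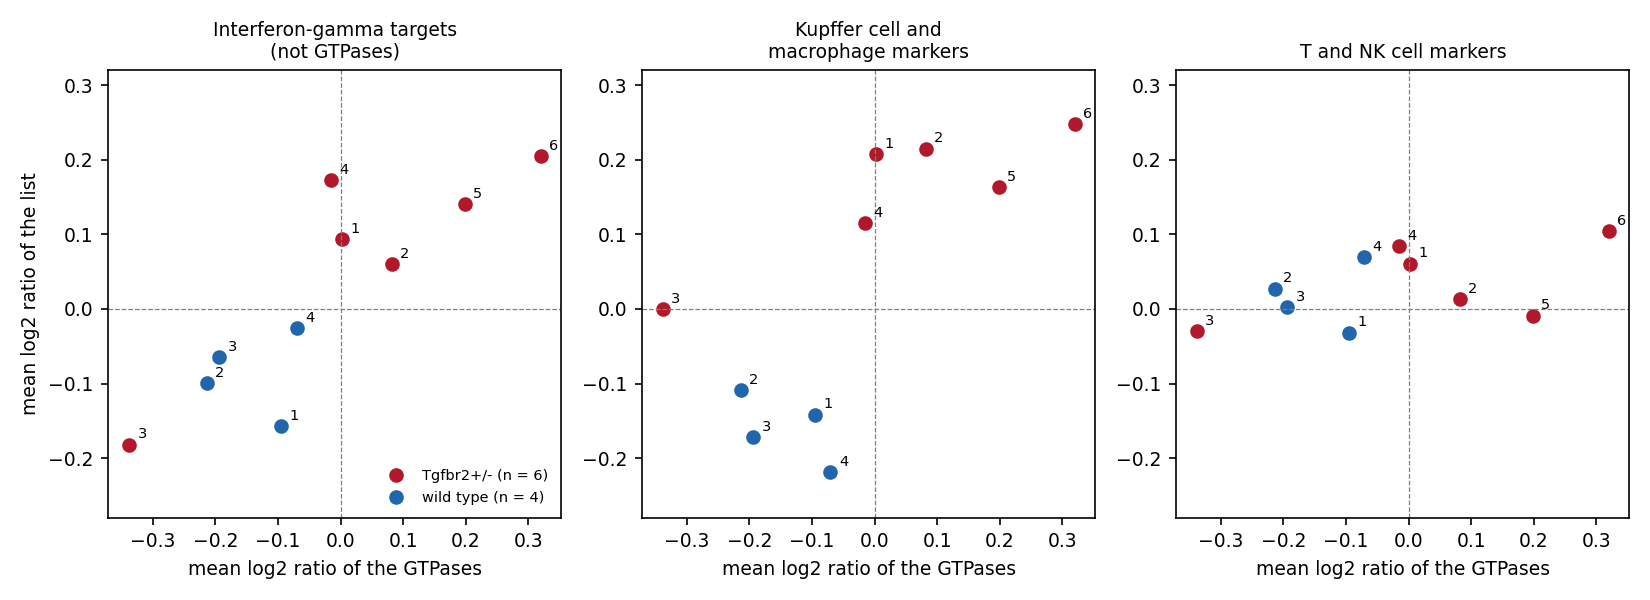
Mean log2 ratio of 3 gene lists (y axis) against the mean log2 ratio of the 9 GTPase genes (x axis) in each library, Tgfbr2+/- in red and wild type in blue, numbered by replicate. Interferon-gamma targets follow the GTPases (r = 0.861), macrophage markers separate the groups as deposited (4 and 5 of 6 heterozygous libraries above all wild type with the unsettled columns turned), and T and NK cell markers stay between -0.03 and 0.10.

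Over all other genes of the array, those most like the mean of the 9 GTPases across the 10 libraries, by Pearson's r, were Snx1 (0.947), which encodes a sorting nexin of endosomes, Commd7 (0.934), Wdr55 (0.915), Themis2 (0.910), a signalling adaptor of B cells and macrophages, the lysosomal protease gene Ctsb (0.904), the semaphorin receptor gene Plxnd1 (0.903), Ifi47 (0.902) and Pafah1b3 (0.901). With group means removed their r stayed between 0.869 and 0.930, and without Tgfbr2+/- replicates 3 and 6 between 0.775 and 0.916. With either unsettled column turned in sign r lay between 0.799 and 0.965. Of these 8 genes Ifi47 alone is a GTPase of the family. The amplitudes differed, since Snx1 ran from -0.13 to 0.12 and Ifi47 from -0.56 to 0.56 among heterozygous livers. Such a ranking picks the highest of 16374 correlations over 10 points and is given as a description.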

How the data were processed

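Liver RNA of 6 Tgfbr2+/- and 4 wild-type mice was measured on 2-colour arrays against a wild-type pool. The authors deposited 1 column of log10 ratios per mouse. The base is inferred: 8 values lie at exactly 2 in size, a 100-fold limit. Per the labels, RNA was amplified with an aminoallyl kit and labelled with Cy3 and Cy5. The series design text mentions dye swaps. The sources used here do not give the scanner, background correction, normalization or array batches. The number of arrays limits the precision.

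Values were multiplied by 3.3219 and averaged per symbol of the platform annotation (17726 probes with 1 symbol, 50 with several, 5662 unnamed here). Column medians were 0.0013 to 0.0047 on the log10 scale, and 0 values were missing. Both groups entered 1 model over all genes in limma 3.58.1 under R 4.3.3 (lmFit, eBayes), with Benjamini-Hochberg adjustment and a threshold of 0.05. Single values had an exact two-sided permutation test over 210 splits. The fit was tested on simulated data. Figures were drawn with matplotlib 3.10.9.

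Members and gene lists were chosen with earlier results of these data known. Named are all members, all measured interferon GTPases outside them, the 3 genes of smallest p in each other list (signalling, interferon-gamma and type I targets, conjugation, cytokines, and Kupffer, T and NK, B, endothelial, stellate, hepatocyte and neutrophil markers) and the 8 genes most correlated with the members' mean. Alternatives were the replicate number as a block, leaving out libraries, turning 2 columns in sign, median centring, quantile normalization, array weights, robust eBayes, leaving out probes at the limit and single probes. The series design text counts the samples as separate mice. Promoters come from RefSeq (GRCm38.p6).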

Additional observations from a re-analysis of the deposited data

Results flagged for a closer look

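In 3 of 20 combinations of gene (or mean of the genes) and group, 1 library stood apart from the others by Dixon's criterion at the 95% level, which chance alone reaches in about 1 of 20. Iigp1 in Tgfbr2+/- replicate 2 was at 0.23, the highest of a group whose other libraries lay between 0.03 and 0.10. Irgm1 in Tgfbr2+/- replicate 3 was at -0.19, below the other heterozygous libraries at 0.01 to 0.12. Irgm2 in wild-type replicate 4 was at 0.11, above the other wild-type libraries at -0.26 to -0.20.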

How the results depend on the processing

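Over 21 alternatives, 183 of 189 differences of single genes kept their sign, and none passed the adjusted threshold (lowest limma adjusted p 0.0720, Gbp3 without Tgfbr2+/- replicate 3). Robust eBayes and leaving out probes at the limit left the differences of the 9 genes unchanged, so they could not turn a sign. The single-probe setting took the probe of smallest p for each gene. Gbp7 turned to -0.12 with the replicate block, -0.12 with Tgfbr2+/- replicate 5 turned in sign, -0.0072 with array weights and as low as -0.064 with a library left out (range -0.064 to 0.15), and Gbp2 was -0.14 to 0.090 with a library left out and -0.22 with the replicate block. Leaving out each library, the genes past the adjusted threshold numbered 0 to 10, the members at an unadjusted p under 0.05 numbered 2 to 6, the mean difference was 0.13 to 0.26, and the mean against the pool was -0.014 to 0.12 in Tgfbr2+/- and -0.17 to -0.12 in wild type. The 10 genes appear without Tgfbr2+/- replicate 3 and include none of the 9. The members at an unadjusted p under 0.05 were 1 with wild-type replicate 1 turned and 1 without Tgfbr2+/- replicates 4 and 5. Shares of all genes at that p are not given here for fits with libraries left out or with the replicate block. The heterozygous mean against the pool was -0.025 with Tgfbr2+/- replicate 5 turned, -0.0046 with quantile normalization and -0.0095 with array weights. Replicate numbers 1 to 4 are shared by the groups, and same-numbered libraries deviated together at r = 0.087, 0.092, 0.302 and 0.007. Wild-type replicates 2 and 3 followed the Tgfbr2+/- library of their own number best. For wild-type replicates 1 and 4 the best matches were Tgfbr2+/- replicates 4 and 6. Whether the numbers pair the mice cannot be told from these values. With the replicate block the mean difference was 0.08 and 2 members, Gbp3 and Iigp1, had an unadjusted p under 0.05, while Gbp2b was at 0.17, Irgm2 at 0.19, Igtp at 0.02 and Tgtp1 at 0.06. Replicates 5 and 6 exist only in Tgfbr2+/-, so with the block these libraries, at 0.20 and 0.32 over the 9 genes, do not enter the difference. The cause of the other shifts was not tested. Without intensities, probes near background cannot be told from probes that did not move.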

Other observations

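The ISRE letters of the GTPase promoters were also looked up over the whole array. Of 13016 genes with a RefSeq promoter 518 held a match, 8 of them members. Among the other 510 the median difference Tgfbr2+/- minus wild type was 0.014, against 0.004 over all 13016. At an unadjusted limma p under 0.05, 27 of the 510 (5.29%) were higher, against 2.89% of the 13016. With wild-type replicate 1 turned in sign these shares were 2.75% and 1.78%, and with Tgfbr2+/- replicate 5 turned 3.14% and 1.57%. The GAS letters were held by 1129 genes, with a median of 0.006 and 3.19% higher. Type I interferon targets held the ISRE letters in 11 of 22 genes with a promoter and interferon-gamma targets in 6 of 19, against 3.98% of the 13016. Kupffer cell markers held them in 0 of 14, sinusoidal endothelial markers in 0 of 7, hepatocyte markers in 0 of 9 and neutrophil markers in 0 of 8. In T and NK cell, B and plasma cell and stellate markers they were held by 2 of 13, 1 of 4 and 1 of 6. With a share this low, 0 in a list this short sets no list apart. These counts describe the lists and were not tested. Ifi47, which followed the GTPases across livers, held neither motif in its window, and no more than that follows from the letters.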
